A study of Mus musculus with 2 samples.

Results

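The single-copy genes of the mouse 2-cell embryo *Zfp352*, *Tmem92*, *Arg2*, *Nelfa*, *Ubtfl1* and *Sp110* were examined for every peak of a Dux chimera whose summit lay inside the gene or within 50 kb of its annotated span. The windows held 29 of the 51356 peaks in the authors' deposited table, 9 at *Zfp352*, 7 at *Tmem92*, 6 at *Ubtfl1*, 3 at *Nelfa* and 2 each at *Arg2* and *Sp110*. No peak fell in more than 1 window. Each of the 6 symbols had 1 entry in the RefSeq gene table, of class protein-coding.

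The peaks come from ChIP-seq in C2C12, an established mouse myoblast line, using a single clone that carried the doxycycline-inducible transgene MMH. MMH joins codon-altered mouse Dux, up to the end of its homeodomains, to the codon-altered carboxy-terminal part of human DUX4, so the DNA contacts are those of Dux while the antisera see DUX4. Both libraries were from MMH cells given 2 ug/ml doxycycline for 18 h. One was precipitated with a mix of MO488 and MO489, antisera against DUX4. The control is labelled HA antibody, although the series text names GFP. After duplicate removal 26253175 antisera fragments and 23412256 control fragments remained, per the file headers. With 1 library per group no value below has a replicate, and intervals cover counting error only. Since both libraries came from induced MMH cells, signal without the transgene was not measured, and myoblasts are not embryo cells.

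Dux is a homeobox transcription factor with a pair of homeodomains that switches on when the mouse zygotic genome is first transcribed. It binds near genes and retroviral elements that are active for a short time at the 2-cell stage, and forced expression in cultured cells can turn many of them on. The 6 genes differ in what they encode. *Zfp352* encodes a zinc-finger protein and is widely used as a marker of the 2-cell stage, *Ubtfl1* an HMG-box protein of the preimplantation embryo, *Nelfa* a subunit of the negative elongation factor that holds RNA polymerase II near promoters, *Sp110* an interferon-responsive nuclear body protein, *Tmem92* a transmembrane protein and *Arg2* the mitochondrial arginase.

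Promoter windows of 4 genes are shown first because they carry the contrasts that follow. They run from 250 bases before to 50 after a RefSeq transcript start (GRCm38.p6, the assembly of mm10), 5′ to 3′ on the gene's strand, with capitals for every TAATC and for its reverse complement on the other strand. TAATC is part of the sequences that homeodomains of the paired-like type are known to contact, and it was picked after the *Zfp352* sequence had been seen. The *Zfp352* window, chr4:90218570-90218869 on the plus strand, lies partly under the gene's strongest peak. The *Sp110* window, chr1:85603842-85604141 on the minus strand, has no peak. The windows of *AA623943*, chr11:94817602-94817901 on the minus strand, and *Rdh11*, chr12:79190912-79191211 on the minus strand, belong to neighbours of *Tmem92* and *Arg2* and each hold a summit.
Zfp352: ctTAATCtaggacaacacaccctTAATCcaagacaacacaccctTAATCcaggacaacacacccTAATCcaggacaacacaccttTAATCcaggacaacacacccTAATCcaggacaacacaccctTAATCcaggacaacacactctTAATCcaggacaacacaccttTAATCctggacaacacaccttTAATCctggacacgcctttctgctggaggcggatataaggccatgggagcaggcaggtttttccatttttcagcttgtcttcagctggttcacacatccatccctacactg
Sp110: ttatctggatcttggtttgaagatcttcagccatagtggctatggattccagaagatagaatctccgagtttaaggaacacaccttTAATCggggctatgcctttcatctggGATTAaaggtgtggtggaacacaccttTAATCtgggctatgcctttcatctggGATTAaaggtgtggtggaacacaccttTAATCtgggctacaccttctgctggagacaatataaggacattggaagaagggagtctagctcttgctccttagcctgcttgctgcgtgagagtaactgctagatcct
AA623943: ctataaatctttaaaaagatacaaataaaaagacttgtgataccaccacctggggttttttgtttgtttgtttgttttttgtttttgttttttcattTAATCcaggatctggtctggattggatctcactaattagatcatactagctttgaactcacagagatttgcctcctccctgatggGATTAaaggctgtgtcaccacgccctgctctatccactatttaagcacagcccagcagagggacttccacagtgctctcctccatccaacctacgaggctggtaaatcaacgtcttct
Rdh11: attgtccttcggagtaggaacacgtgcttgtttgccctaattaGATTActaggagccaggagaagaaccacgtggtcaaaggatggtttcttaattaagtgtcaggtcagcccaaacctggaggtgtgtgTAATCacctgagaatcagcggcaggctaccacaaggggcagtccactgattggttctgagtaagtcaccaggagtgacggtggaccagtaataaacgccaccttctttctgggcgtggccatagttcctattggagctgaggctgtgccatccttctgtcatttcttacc

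Peak height is given as the pileup, meaning how many antisera fragments cover the summit, and as fold enrichment, which compares the pileup with the local background after adding 1 to each. Both are the authors' own values for each peak. Over the 29 peaks the pileup ranged from 18 to 179 fragments with a median of 58, against 41 over all peaks. Fold enrichment ranged from 2.85 to 34.9 with a median of 11.8, against 8.02. Widths ranged from 295 to 1270 bp with a median of 469 bp, against 430 bp. Of the 29 peaks 6 (20.7%) reached 20-fold, as did 13.7% of all peaks. The set therefore spans weak and strong peaks, from the lowest 1% of the list by fold to the upper 5%.

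**Figure D1:**
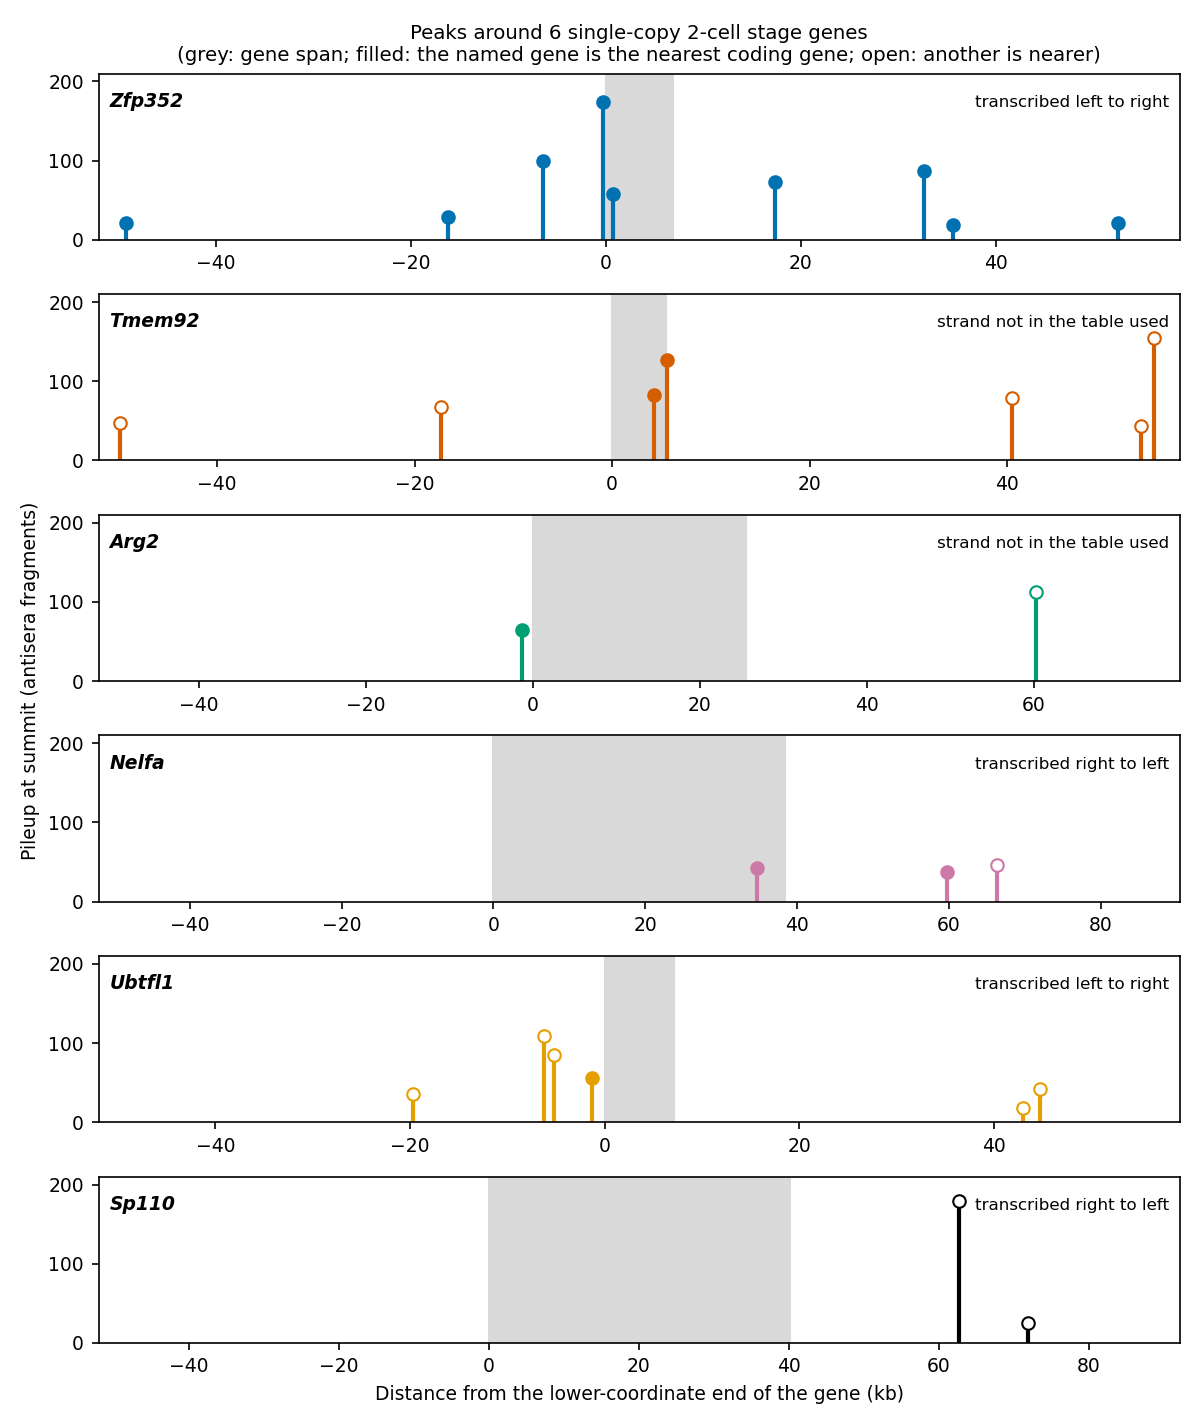
Pileup at the summit in antisera fragments (y) against distance in kb from the lower-coordinate end of each gene (x), 1 panel per gene, with the gene span in grey. Filled points are peaks whose nearest protein-coding gene is the named gene and open points are nearer to another. *Zfp352* has 9 filled points, while both *Sp110* points, at 179 and 25 fragments, are open and lie outside the gene.

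*Zfp352*, at 90218820 to 90225687 on chromosome 4, plus strand, had the most peaks of the 6 and the highest fold. No other gene came within 50 kb of it, so all 9 peaks were nearest to it. The strongest peak, 644 bp wide at 90218134 to 90218777, had its summit 321 bp before the start, with 174 fragments and 34.9-fold enrichment (95% Poisson interval 29.9 to 40.5). A second peak, 613 bp wide, lay inside the gene 763 bp after the start, with 58 fragments and 11.8-fold enrichment (8.98 to 15.2). These summits are 1084 bp apart, and the intervals of their folds do not overlap.

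The other *Zfp352* peaks lay on both sides of the gene. Upstream, summits at 6468, 16170 and 49186 bp had 99, 29 and 21 fragments and 19.9-, 4.96- and 3.68-fold enrichment. Height fell with each step away, although the intervals of the 4.96- and 3.68-fold peaks overlap (3.38 to 7.05 and 2.34 to 5.54). Downstream of the gene's end, summits at 10527, 25728, 28742 and 45654 bp had 73, 87, 19 and 21 fragments, or 13.8-, 14.6-, 3.65- and 2.85-fold enrichment. There the first pair was of similar height and the outer pair was weak. The last is among the weakest of the whole list, with 0.136% of peaks ranked below it by fold.

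The control background was raised at most of these peaks. The local background in the control was above its genome-wide floor of 4.01 fragments at 6 of the 9 *Zfp352* peaks, at up to 6.73 fragments, and at the floor for the 3 peaks nearest to the start. Chromosome 4 as a whole had a raised background at 43.1% of its peaks, against 15.8 to 17.6% on the chromosomes of the other 5 genes. Its part in the number of peaks called here was not tested. Across all 29 peaks the background ranged from 4.01 to 6.73 fragments. It stood at the floor for 17 of them, against 78.0% of all peaks in the list. The 12 raised ones were 6 at *Zfp352* and 2 each at *Tmem92*, *Ubtfl1* and *Sp110*.

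Part of the main *Zfp352* peak covers a tandem repeat. The promoter window holds 10 copies of TAATC, all on the gene's strand, with neighbouring copies 20 to 21 bases apart, and all 10 lie in the first 208 bases, the stretch covered by the peak. The rest of the 644 bp peak, its summit included, lies before this window and its sequence was not analysed here. The next highest count among 32851 RefSeq promoter windows was 5, reached by 6 windows, and 78.0% of windows had none. One of the 6 was the *Sp110* window printed above, where 3 copies are on the gene's strand and 2 on the other, 26 to 27 bases apart. *Nelfa* and *Ubtfl1* had 0 copies, and a second *Sp110* window had 1. *Tmem92* and *Arg2* are not in the promoter table.

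Windows with more copies were overlapped by a peak more often, although few windows had many. A peak overlapped 2.17% of all windows by at least 1 bp, 1.82% of the 25623 windows with 0 copies (exact binomial 95% interval 1.66 to 1.99%), 3.02% of 5933 with 1 (2.60 to 3.48%) and 4.54% of 1079 with 2 (3.38 to 5.96%). Of the 7 windows with 5 or more copies 2 were overlapped (28.6%, interval 3.67 to 71.0%), those of *Zfp352* and *Esp24*. The *Sp110* window was not. The 7 include *Zfp352*, whose sequence led to the choice of TAATC, so their share was not independent of that choice. Windows with the longer forms described below, which can contain TAATC, were not set apart. Base composition was not adjusted for, and a run of these letters is a description of sequence and not a site.

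**Figure D2:**
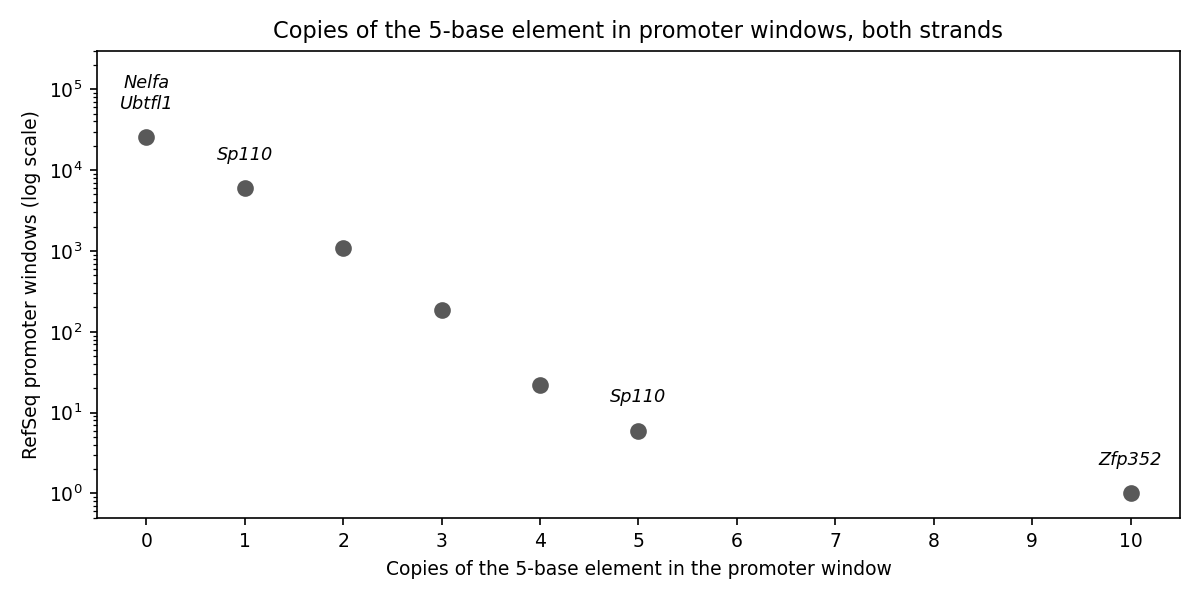
Number of RefSeq promoter windows on a log scale (y) by copies of the 5-base element TAATC on either strand (x). *Zfp352* stands alone at 10 copies, an *Sp110* window is among the 6 windows at 5, and *Nelfa* and *Ubtfl1* are at 0.

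Longer forms of the recognition sequence were absent from all 5 windows of the 4 genes in the table. GATTNAATC, the inner part of the Dux site and its own reverse complement, was found in 0.268% of all windows and in 46 of the 379 windows that hold a summit (12.1%, interval 9.02 to 15.9%). AATCTAATC, the inner part of the DUX4 site, searched on both strands, was found in 0.0944% of all windows and in 3 of those 379 (0.792%, interval 0.164 to 2.30%). A match of the first form contains TAATC, on one strand or the other, when its middle base is T or A, and the second form always contains it. None of the 5 windows held a summit, and 1.15% of all windows did. With shares this low, absence from 5 windows is the usual outcome, both for a summit and for the 2 longer forms. The sequences under the other peaks of the 6 genes were not analysed here.

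*Ubtfl1*, at 18404418 to 18411502 on chromosome 9, plus strand, had a row of peaks before its start and none inside. The closest, 484 bp wide, had its summit 1330 bp upstream with 56 fragments and 10.4-fold enrichment (7.89 to 13.4). It lay 230 bp from the pseudogene *Gm19174*, which is nearer to it than *Ubtfl1* is. Taller summits followed at 5239 bp, with 85 fragments and 17.2-fold enrichment (13.7 to 21.2), and at 6200 bp, with 109 fragments and 20.1-fold (16.5 to 24.2). Height at this gene therefore rose with distance over the first 3 peaks, the opposite order to the upstream side of *Zfp352*. The intervals of the 2 taller *Ubtfl1* peaks overlap, as do those of the outer pair upstream of *Zfp352*.

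That taller pair is 961 bp apart and is nearer to *Naalad2*, which encodes a peptidase of the glutamate carboxypeptidase family. The summits lie 680 and 1641 bp outside that gene. A weaker summit with 36 fragments (7.38-fold) was inside *Naalad2*, 19677 bp from *Ubtfl1*. On the other side 18 fragments (3.79-fold) and 42 fragments (8.58-fold) stood at 35942 and 37595 bp, both nearest to *Mbd3l2*, a relative of the methyl-CpG-binding proteins. The second of these was the widest of the 29 at 1270 bp.

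*Nelfa*, at 33897916 to 33936301 on chromosome 5, minus strand, had peaks of moderate and similar height, and the lowest best peak of the 6 genes. Its 3 summits had 43, 37 and 46 fragments, or 8.78-fold (6.41 to 11.8), 7.58-fold (5.40 to 10.4) and 9.37-fold (6.92 to 12.4) enrichment, and all 3 intervals overlap. The first lay inside the gene, 3689 bp after the RefSeq start. The others lay 21327 and 27951 bp upstream of that start, the farther one nearer to *Gm1673*. It is the one gene of the 6 without a peak of 20-fold or more in its window.

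*Sp110*, at 85570735 to 85610850 on chromosome 1, minus strand, had no peak inside it or within 5 kb. Its span overlaps the start of *Sp140*, which encodes a related nuclear body protein and runs on the other strand. Both peaks of the window lay inside *Sp140*. One had 179 fragments, the highest pileup of the 29, and 26.6-fold enrichment (22.8 to 30.7), with its summit 22556 bp outside *Sp110*. The other had 25 fragments and 4.85-fold enrichment (3.20 to 7.07) at 31773 bp. Both had a raised local background, 5.78 and 4.36 fragments. Measured from the *Sp110* start whose window is printed above, the taller summit lay 29515 bp upstream. The *Sp110* starts that have a window, 85603891 and 85598810, lie inside the span. No window at its upstream end, 85610850, was read.

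*Tmem92*, at 94777217 to 94782703 on chromosome 11, had a close pair of peaks at its higher-coordinate end. One summit lay 65 bp outside that end, with 127 fragments and 25.5-fold enrichment (21.3 to 30.3), the nearest of the 29 to an end of its gene. Its partner, 1343 bp away and inside the gene, had 82 fragments and 16.6-fold enrichment (13.2 to 20.5). The remaining 5 peaks were nearer to other genes. The source used here gives no strand for *Tmem92*, so which end is the start was not settled.

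The tallest peak of the *Tmem92* window was not the one at *Tmem92*. It had 155 fragments and 31.1-fold enrichment (26.4 to 36.4) and lay 49434 bp away, 151 bp outside *Gm11543*, with a weaker summit of 43 fragments (8.78-fold) inside that gene 1397 bp from it. A peak with 79 fragments (14.6-fold, 11.6 to 18.1) had its summit 91 bp before the start of *AA623943*, and its 464 bp cover the whole promoter window printed above. A summit with 68 fragments (12.2-fold) lay inside *Gm11545*. The last, with 47 fragments (9.57-fold), was 49890 bp away and nearest to *Gm11541* among coding genes.

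*Arg2*, at 79130788 to 79156301 on chromosome 12, had a single peak of its own. Its summit lay 1227 bp outside the lower-coordinate end, with 65 fragments and 13.2-fold enrichment (10.2 to 16.7). The other peak of the window was taller, with 113 fragments and 22.7-fold enrichment (18.8 to 27.3), and lay 34747 bp away inside *Rdh11*, a retinol dehydrogenase gene. That summit falls in the *Rdh11* promoter window printed above, which the 550 bp peak covers from end to end. A second *Rdh11* window, at a start farther upstream, held no summit and 0 copies of TAATC. The intervals of the 2 *Arg2* folds do not overlap.

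**Figure D3:**
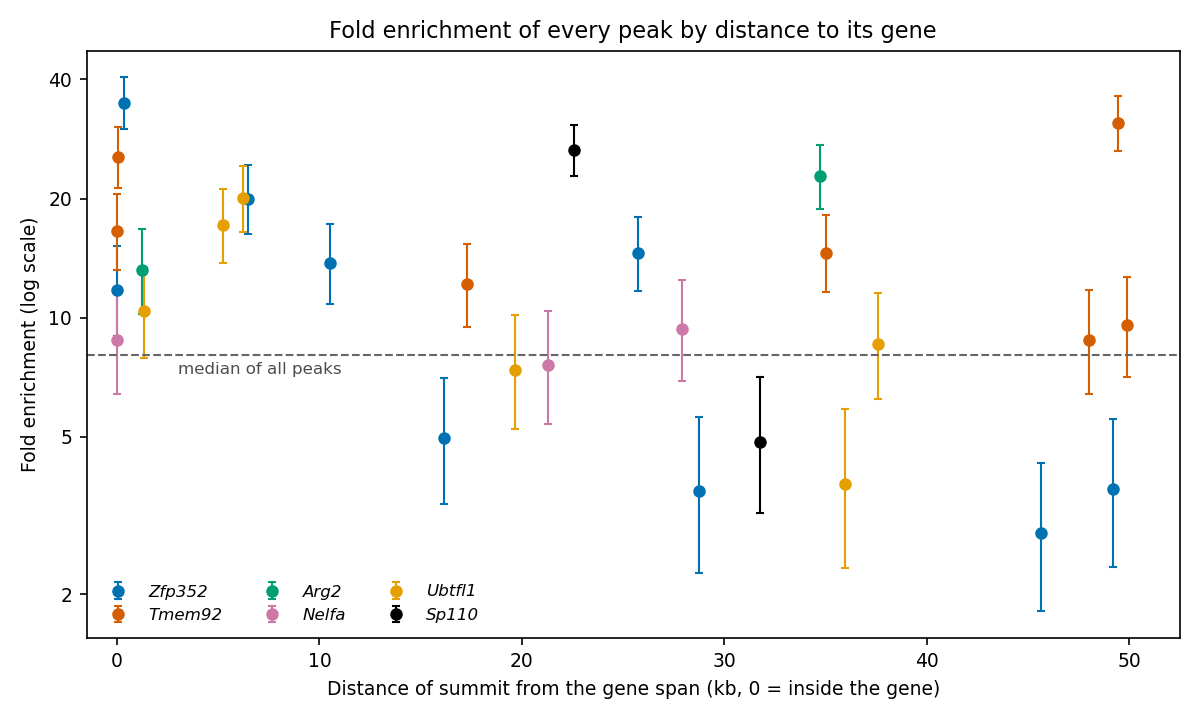
Fold enrichment on a log scale (y) of all 29 peaks against the distance of the summit from the gene span in kb (x, 0 for summits inside), coloured by gene. Bars are 95% Poisson intervals of the pileup with the background held fixed, and the dashed line is the median of all peaks, 8.02. All 7 peaks within 5 kb lie above that line, with the lower bounds of the *Nelfa* and *Ubtfl1* peaks under it, while peaks farther out run from 2.85 to 31.1.

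Across the genes, 7 peaks lay within 5 kb of the span and 22 lay farther out. The near peaks had folds of 8.78 to 34.9 with a median of 13.2, and the far ones 2.85 to 31.1 with a median of 9.47. All 6 peaks under 5-fold were among the far ones, and those of 2.85-, 3.65-, 3.68- and 4.96-fold were all in the *Zfp352* window. By fold the 4.96-fold peak stood at the 14.1 percentile of all peaks. With only 7 near peaks, the absence of such weak ones there says little about distance. Being near did not mean being the tallest, since the peak nearest to the span was also the strongest at 1 of the 6 genes, *Sp110*, whose peaks were both over 5 kb away. At *Zfp352* the strongest peak lay 321 bp outside the gene and a weaker one inside. Of the 29 peaks 15 had the examined gene as their nearest coding gene, and 14 were nearer to, or inside, 9 other coding genes. Summits lay inside an examined gene in 3 cases, 1 each in *Zfp352*, *Tmem92* and *Nelfa*.

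Set beside all 21900 positioned protein-coding genes, having a peak somewhere in the window was ordinary and having many was not. All 6 genes had a summit within 50 kb, as did 81.2% of coding genes. Within 5 kb the count was 5 of 6, against 43.2%. A summit inside the gene was found at 3 of 6, against 32.3%, and a peak of 20-fold or more within 50 kb at 5 of 6, against 27.8%. In the windows of *Arg2*, *Ubtfl1* and *Sp110* that peak was nearer to, or inside, another gene. The *Ubtfl1* one, at 20.1-fold (16.5 to 24.2), barely passed the cut. Within 5 kb only *Zfp352* and *Tmem92* had a peak of 20-fold or more, as did 11.8% of coding genes. The strongest peak per window had a median of 24.7-fold over the 6 genes and 14.2-fold over coding genes with a peak there. Counting only peaks whose nearest coding gene is the examined one, the median over the 6 genes was 11.8-fold, because the strongest peaks in the windows of *Tmem92*, *Arg2*, *Ubtfl1*, *Sp110* and *Nelfa* were nearer to, or inside, other genes, and *Sp110*, which then had none, entered as 0. That count was not made for all coding genes. Within 5 kb the corresponding medians were 13.2-fold over the 5 genes with a peak and 11.6-fold. The genes were picked with results of these data known, so these shares are given without a test.

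The number of peaks separated the genes into those with many and those near the middle. *Zfp352* with 9 peaks stood at the 96.1 percentile of coding genes, *Tmem92* with 7 at the 93.1 and *Ubtfl1* with 6 at the 90.1. *Nelfa* with 3 was at the 66.6, and *Arg2* and *Sp110* with 2 each at the 50.1. The median coding gene had 2. Most peaks in the *Tmem92* and *Ubtfl1* windows were nearest to other coding genes, whereas all of those at *Zfp352* were nearest to it. The first 3 genes are short, with spans of 5487 to 7085 bp, so their counts come from smaller windows than those of the other 3. In peaks per Mb *Zfp352* had 84.2 (exact Poisson interval 38.5 to 159.9), *Tmem92* 66.4 (26.7 to 136.7) and *Ubtfl1* 56.0 (20.6 to 122.0), while *Nelfa* had 21.7 (4.47 to 63.4), *Arg2* 15.9 (1.93 to 57.6) and *Sp110* 14.3 (1.73 to 51.6). These intervals overlap for every pair of genes. Chromosome 4 as a whole had 24.2 peaks per Mb, against 18.6 to 19.7 on the chromosomes of the other 5 genes. The percentiles were not matched by chromosome.

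**Figure D4:**
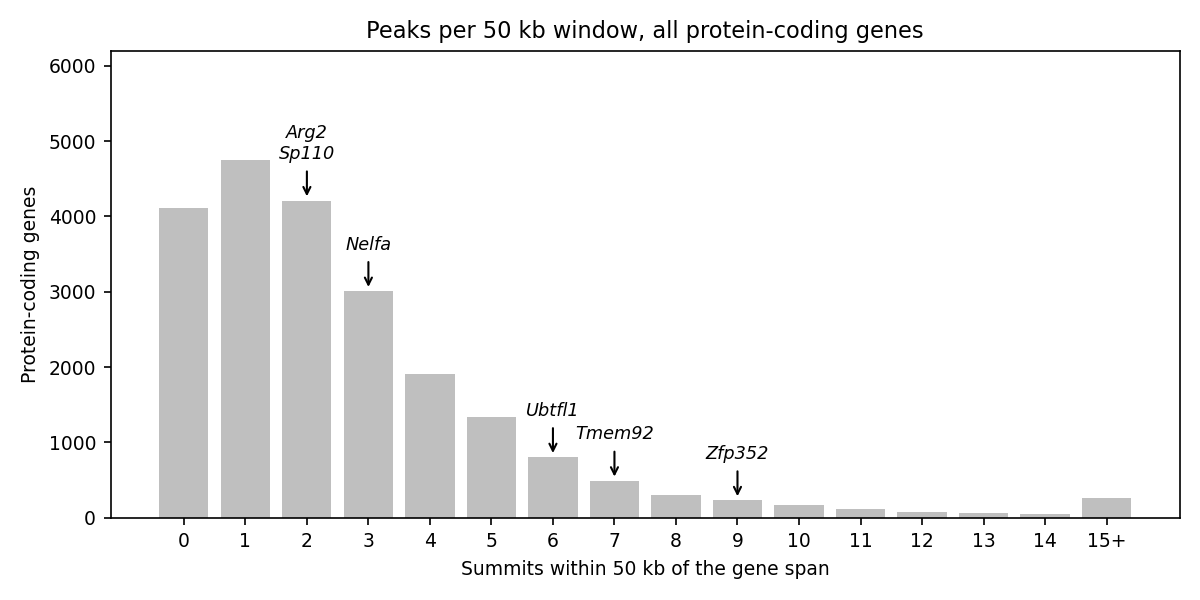
Number of protein-coding genes (y) by the number of summits within 50 kb of the gene span (x), with 15 or more pooled. *Zfp352*, *Tmem92* and *Ubtfl1*, at 9, 7 and 6 summits, lie in the right tail, and *Arg2* and *Sp110* lie at the median of 2.

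The windows of the same 3 genes held closely spaced summits. A pair within 1.5 kb occurred in the windows of *Zfp352*, *Tmem92* and *Ubtfl1*, 3 of 6 genes, against 8.89% of coding genes. Longer peak rows give more chances for such a pair, and no adjustment was made for that. There were 4 pairs, with spacings of 961 to 1397 bp, and the *Tmem92* window held 2 of them. The pair in the *Ubtfl1* window was nearest to *Naalad2*, and the *Tmem92* window's pair spaced 1397 bp was nearest to *Gm11543*. The taller summit of a pair had 1.28 to 3.60 times the fragments of the other. At the smallest ratio, in the *Ubtfl1* window, the intervals of the fragment counts overlap. The peaks of a pair were separated by gaps of 445 to 919 bp outside any called peak.

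The edge of the window fell close to some peaks. Just inside 50 kb were summits at 49890 and 49434 bp from *Tmem92* and 49186 bp from *Zfp352*. Just outside were a 6.58-fold peak at 50919 bp from *Ubtfl1*, a 13.2-fold peak at 51750 bp from *Arg2* and a 37.3-fold peak with 186 fragments at 58835 bp from *Zfp352*, above the 34.9-fold of its strongest peak within the window.

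A list of 12 further genes that are active at the 2-cell stage or regulate entry into it gave a background within the programme. Of these, 7 had a summit within 5 kb and 11 within 50 kb, against the same 43.2% and 81.2% of coding genes, with a median of 2.5 summits per 50 kb window. Gene length was not matched for this list, and longer genes have wider windows. Those without a summit within 5 kb spanned at most 17140 bp, and those with one 4661 to 323965 bp. Over the 7 genes with a summit within 5 kb, the best folds there had a median of 10.6. The highest was at *Kdm5b*, a histone H3K4 demethylase, with 122 fragments and 24.5-fold enrichment (20.4 to 29.3) inside the gene. *Smarca5*, a chromatin remodelling ATPase, had 98 fragments and 19.7-fold (16.1 to 24.0), also inside. *Ddit4l* had 53 fragments and 10.8-fold 2297 bp outside, and *Patl2* 52 fragments and 10.6-fold 11 bp outside. *Dppa2* and *Dppa4*, which lie side by side and act upstream of Dux, had no summit within 5 kb. Their 50 kb windows overlap and each held 1 summit, of 6.38-fold, so 1 peak may be counted for both.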

How the data were processed

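ChIP-seq libraries were 1 antisera immunoprecipitation and 1 control, grouped by the antibody label. The submitters' processing notes name BWA, MACS2 and mm10. Per the file headers, peaks were called by MACS 2.1.0.20151222 from paired-end fragments at a q-value threshold of 0.01, keeping at most 1 fragment per position. The redundant share was 20% in the antisera and 42% in the control library. The deposited pileup is a signal in fragments, the deposited fold enrichment is a ratio, and the authors' caller gave −log10 of p and q. All 51356 pileups were whole numbers. How multiply mapping reads were handled is not stated in the labels or headers.

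Local background was solved from each deposited pileup and fold, using a pseudocount of 1, and counted as raised when more than 0.001 above its lowest value. Gene spans came from RefSeq GRCm38.p6, which gives no exons. Strand and starts came from the RefSeq promoter table, which held 4 of the 6 genes. A peak belonged to a window by its summit. Percentiles split ties evenly. Intervals are exact Poisson or Clopper-Pearson binomial at 95%. Window counting was tested on simulated data, and no test between genes was run.

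The named genes are the 6 examined, genes inside or nearer which a peak of their windows lies, and the 4 of the further 12 with the highest fold within 5 kb. *Esp24*, *Gm19174*, *Dppa2* and *Dppa4* were named after their values were seen. The genes and lists were chosen with earlier results of these data known. The alternatives were stricter q, other distances, 1 bp of overlap, low background and length matching. Counting peaks by nearest gene was added later. Python 3.11.15, numpy 2.4.6, pandas 2.3.3 and scipy 1.17.1 were used.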

Additional observations from a re-analysis of the deposited data

How the results depend on the processing

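Of 32 values recomputed under 10 alternative settings, 21 changed little, meaning within 1.5 times for a count, or within the main value's counting interval for a median fold or a percentile. Stricter q-values left the counts of genes with a peak at 6 within 50 kb and 5 within 5 kb. Removal of peaks with a background of 10 or more could not lower these counts, since no peak of the windows reached it, and 1 bp of overlap can add peaks but not remove them. With a window of 20 kb the 29 peaks became 14 and the median best fold 16.6 in place of 24.7, and with the widest window, 100 kb, there were 47 peaks. Counting only peaks whose nearest coding gene is the examined one, an alternative added after seeing the data, left 15 peaks and a median best fold of 11.8. Against coding genes with spans within a factor of 2, the percentile of the peak count was 99.5 for *Zfp352*, 98.2 for *Tmem92*, 97.0 for *Ubtfl1*, 64.7 for *Nelfa*, 51.3 for *Arg2* and 45.6 for *Sp110*. All 6 percentiles counted as moved, small shifts such as that of *Arg2* from 50.1 included. No paired analysis was possible because each group has 1 library. Pileups of about 20 fragments leave wide intervals, and peaks below the caller's threshold are not in the list.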

Other observations

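Of the genes beside *Tmem92*, the promoter windows of 2 were compared. Those of *Gm11545* and *AA623943*, both on the minus strand, aligned end to end with 68.2% identity over 333 columns (227 identical), a comparison chosen after the sequences had been seen. The identity of unrelated windows was not measured. Each window holds 2 copies of TAATC, counting both strands. Their peaks were placed differently, over the start at *AA623943* and inside the gene at *Gm11545*. *Tmem92* itself could not be included, since it is not in the promoter table.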
